A study of Gallus gallus with 9 samples.

Results

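Collagen genes of the chicken were followed here through early development of the head. A gene counted as a collagen if its symbol was COL, a number, A and a number. Of the 16880 genes in the files, 24 met that rule. Collagen genes without such a symbol were left out, so the 24 may not be the whole family. By the structure of the protein, 6 of them encode chains of fibrillar collagens, 2 chains of type IV, 2 chains of type VIII, 3 chains of the beaded filaments of type VI, 6 the collagens that decorate fibrils (FACIT), 3 transmembrane collagens and 2 other kinds. The files give symbols and identifiers but no gene positions, so no coordinates are printed.

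Collagens are secreted or membrane-bound proteins of 3 chains wound into a triple helix. Fibrillar collagens form the fibres of connective tissue, type IV forms the sheet of basement membranes that underlie epithelia, and FACIT collagens sit on the surface of fibrils. In the early head, mesenchyme lies between epithelia and is the main known source of fibrils, while basement membrane chains are made by epithelia and mesenchyme alike.

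The study dissected slices covering every germ layer at the level of the midbrain from untreated wild-type chicken embryos and profiled dissociated cells by 10x Chromium 3′ single-cell RNA-seq. Several embryos were pooled per sample, so a library has no identity of an embryo. There were 2 libraries each of Hamburger-Hamilton stage 5 (HH5, gastrula), of embryos of 1, 4 and 7 somites (1ss, 4ss and 7ss), and 1 library of stage 11 (HH11). The methods describe the samples of a stage as independent, each a pool of embryos. P-values of stage changes rest on the spread between the 2 such libraries of a stage. P-values between gates rest on how the gate difference varies over the libraries of all stages. The HH11 library had its own preparation protocol, another version of the counting software (Cell Ranger 5.0.0 in its file header, against 6.1.1 in the other 8) and no replicate, so stage, protocol and version cannot be told apart there and its values are given with counting intervals and no test between stages.

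Cells were split by 4 marker genes: SOX17 (endoderm), TWIST1 (mesoderm), DLX5 (non-neural ectoderm) and SOX21 (neural). A cell entered a gate if it had at least 1 unique molecular identifier (UMI, a tag that counts a captured RNA molecule) of that gene and none of the other 3. UMIs were summed over the cells of a gate in a library, and dividing by all UMIs of that sum gave a level in CPM (counts per 1e6). A sum needed at least 50 cells, which left out SOX17 cells at 7ss and HH11. From HH5 to 7ss, TWIST1 sums held 568 to 1047 cells, DLX5 sums 356 to 1257, SOX21 sums 470 to 3833 and SOX17 sums 57 to 970. Because a 3′ tag is counted per molecule, levels of different collagens are set side by side without a correction for length, and capture at the annotated 3′ end may differ between genes.

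The 9 libraries held 5535 to 23489 barcodes and 11104738 to 89386898 UMIs, and 93643 of 107749 barcodes passed the cell filters, with medians of 1123 to 4309 UMIs per cell. Pairs of libraries shared 7 to 115 barcodes over 36 pairs. The gates were checked with marker panels, of which the summed level of mesoderm markers was 1025 to 1811 CPM in TWIST1 cells against 18.8 to 107 in DLX5 cells and 14.1 to 52.5 in SOX21 cells, and that of endoderm markers was 2491 to 9053 CPM in SOX17 cells against 310 to 694 in TWIST1 cells. SOX17 cells also held 1137 to 4566 CPM of the non-neural ectoderm panel, against 1349 to 2604 in DLX5 cells. SOX21 cells held 416 and 621 CPM of the neural panel in HH5, and 1334 and 1334 in 7ss. Their level of the non-neural ectoderm panel was 812 and 1060 CPM in HH5, and 197 and 203 in 7ss. The panel levels of the SOX21 gate thus changed with stage, and their part in its stage changes was not tested. A panel of endothelium and blood markers summed to 17.5 to 151 CPM in SOX17 cells, against 19.7 to 83.7 in TWIST1 cells. In 4ss 29.0% and 22.5% of SOX17 cells had a UMI of that panel, against 13.9% and 11.2% of TWIST1 cells. The 4ss libraries did not resemble each other most: over 7722 genes the Pearson correlation of the TWIST1 sum of 4ss replicate 2 was 0.976 and 0.969 with the 7ss sums and 0.941 with 4ss replicate 1, while that of 4ss replicate 1 was 0.976 and 0.985 with the 1ss sums. No label gives a batch for these 8 libraries, so stage changes within a gate are also given with a term for the set of libraries. The first set was HH5, 1ss and 4ss replicate 1, and the second was 4ss replicate 2 and 7ss. This leaves only the 4ss libraries to separate stage from set. Of these, replicate 2 had a median of 10.9% mitochondrial UMIs per barcode, against 4.50% in replicate 1. In replicate 2 35.4% of TWIST1 cells were called doublets, against 8.28% in replicate 1. The sets follow the likeness of the libraries, so the term cannot tell a batch from a difference in stage or quality. Droplets with at most 100 UMIs, called empty droplets here, were taken as a measure of the RNA that is free in the suspension. Whether they held only such RNA was not tested. COL2A1 had 15.6 and 16.6 CPM in them at 7ss, against 3.87 and 3.20 over all kept cells. A gate level at or below theirs does not by itself show that its UMIs were free RNA.

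Collagen transcripts were most abundant in TWIST1 cells in each of the 8 libraries from HH5 to 7ss. The 24 genes together held 56.0 to 170 CPM in SOX17 cells (6 libraries). They held 240 and 331 CPM in TWIST1 cells of HH5, 201 and 225 in 1ss, 241 and 326 in 4ss, and 446 and 571 in 7ss. The sums were 99.6 to 165 CPM in DLX5 cells and 68.5 to 120 in SOX21 cells (8 libraries each), and no TWIST1 value overlapped any of these 3 gates. Empty droplets held 54.6 to 168 CPM over the same 8 libraries, so a part of the collagen UMIs in any cell can be free RNA, and the level in empty droplets is given for the genes described by library.

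Over all cells and libraries, 3 genes led the collagens counted: COL1A1 with 15432 UMIs, COL4A1 with 11891 and COL5A1 with 11289. COL1A2, COL9A1 and COL4A2 followed with 3833, 3098 and 2333 UMIs. COL25A1 and COL28A1, with 20 and 21 UMIs, were hardly measured, and COL20A1 and COL17A1 had 101 and 127. The share of COL1A1 in the collagen UMIs of TWIST1 cells ran from 16.4% to 52.4%, with a median of 34.2%.

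**Figure D1:**
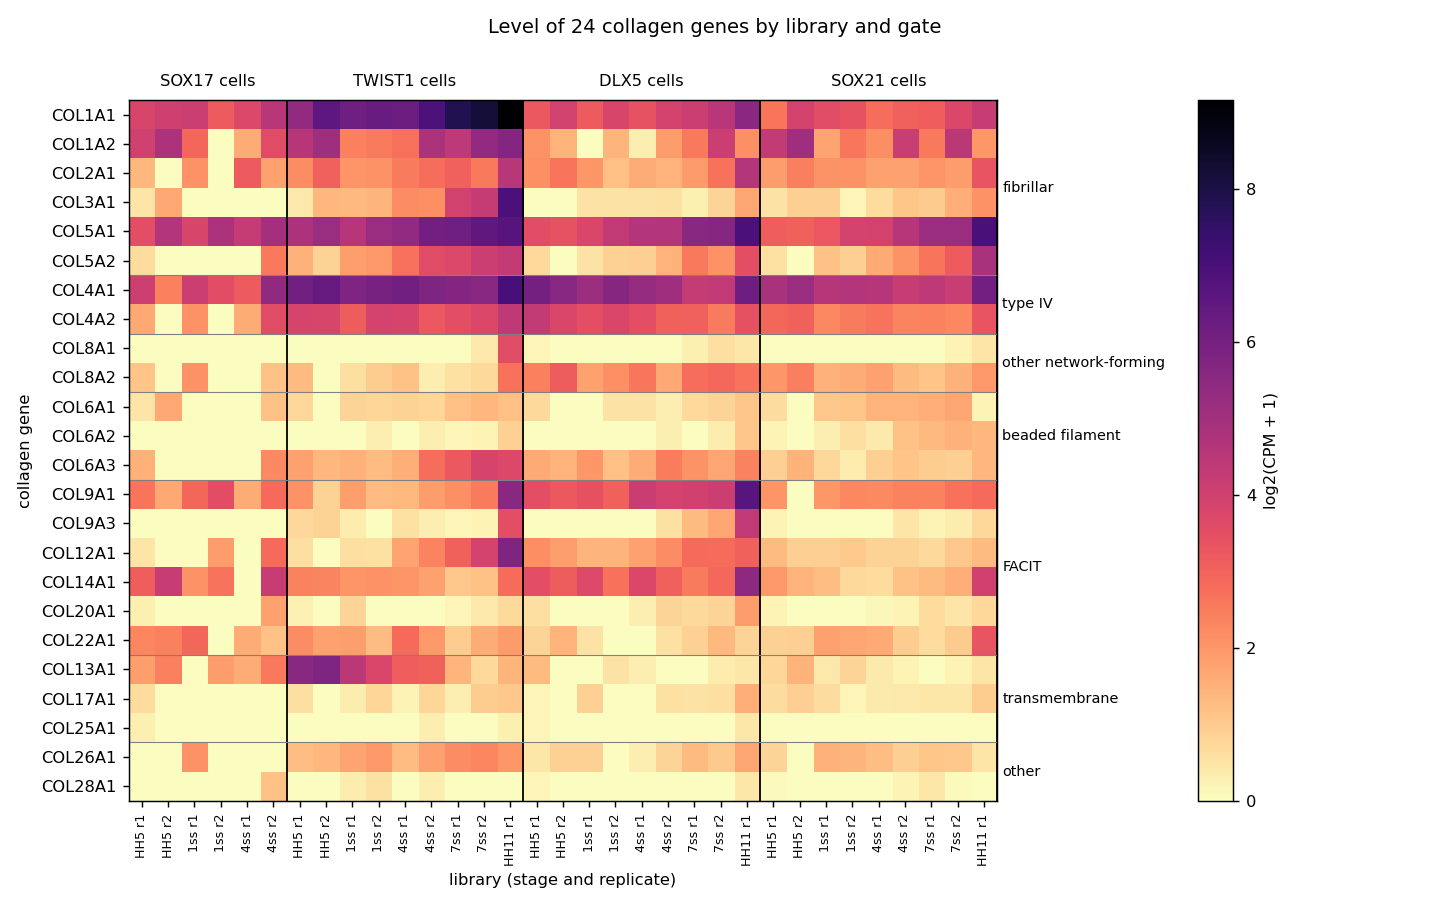
Heat map of the 24 collagens (down the side, by structural class) in each gate and library (across), as log2(CPM + 1). COL1A1, COL4A1 and COL5A1 stand out in TWIST1 cells at each stage, and COL13A1 in TWIST1 cells of HH5 (46.8 and 55.8 CPM). COL9A1 stands out in DLX5 cells, and COL14A1 in DLX5 cells and in some SOX17 sums.

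Gates were compared in edgeR's quasi-likelihood F test on the sums of the 8 libraries, with the library as a block, and changes are log2 ratios with their standard error (SE). P-values were adjusted over all genes tested by the Benjamini-Hochberg method, and a change was called at an adjusted p under 0.05. Of the 24 collagens, 15 passed the filter on low counts in this fit. COL3A1, COL6A1, COL6A2, COL8A1, COL9A3, COL17A1, COL20A1, COL25A1 and COL28A1 did not and are described by their values. A gene can pass through a gate where it is high, so counts and medians of the tested collagens depend on the filter. COL13A1, which passed, reached 55.8 CPM in TWIST1 cells but at most 1.49 in DLX5 and 1.76 in SOX21 cells. Of those left out, COL6A2 at 7ss was higher in SOX21 than in TWIST1 cells, and COL3A1 was lower.

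In TWIST1 cells against SOX21 cells 12 of the 15 tested collagens were higher and 1, COL8A2, was lower, with a median log2 change of 1.26 beside −0.01 over all 9954 genes. Of all genes tested, 42% were called in that comparison (20.5% higher and 21.4% lower). Against DLX5 cells, TWIST1 cells had 10 collagens higher and 3 lower (COL8A2, COL9A1 and COL14A1), with a median of 0.75 beside 0.01, where 40.8% of all genes were called (20.3% higher and 20.5% lower). Both comparisons use the same TWIST1 sums. SOX17 cells against TWIST1 cells had 2 collagens higher and 7 lower, where 22.9% of all genes were called (11.4% higher and 11.6% lower). SOX17 cells had 3 higher and 4 lower than DLX5 cells (27.4% of all genes called), and 4 higher and 0 lower than SOX21 cells (36.7% called). DLX5 cells against SOX21 cells had 9 collagens higher and 1, COL1A2, lower, where 28.6% of all genes were called (14.1% higher and 14.6% lower). At an unadjusted p under 0.05 (edgeR), 8 of the 15 collagens differed between SOX17 and SOX21 cells, beside 4434 of all 9954 genes.

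**Figure D2:**
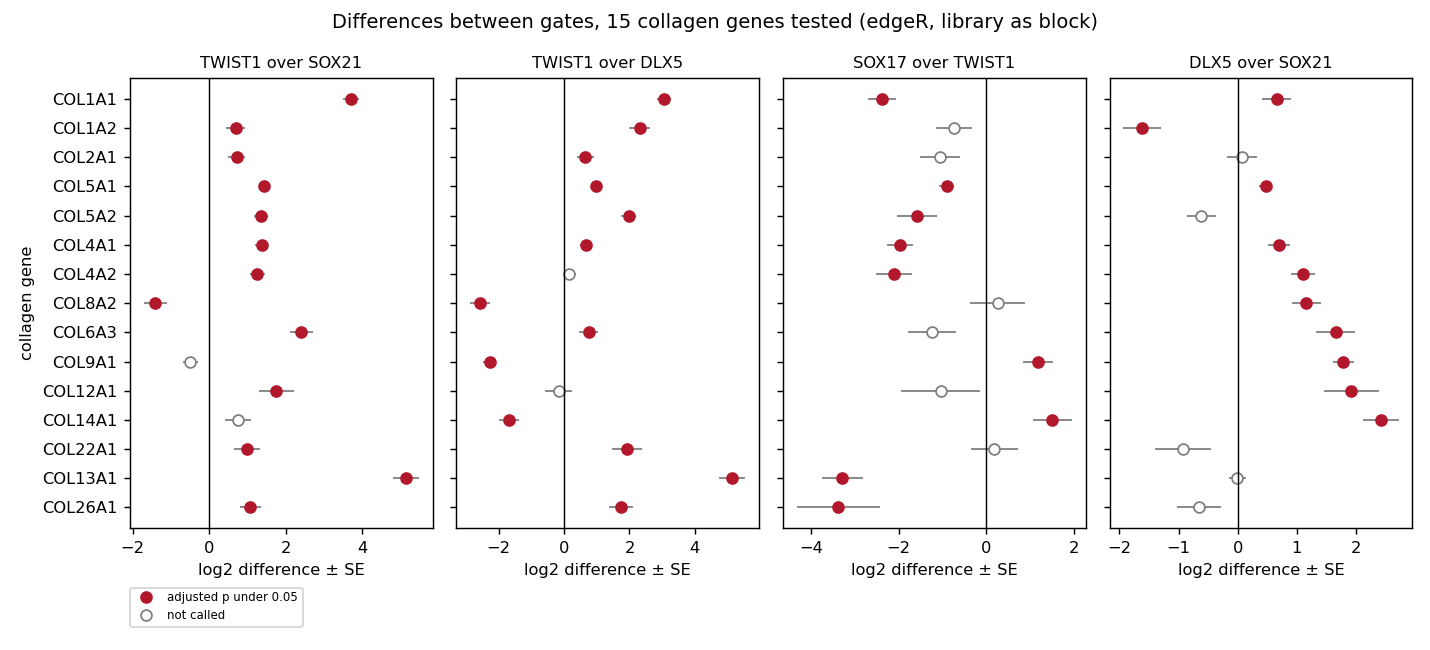
Log2 change (x axis) with its SE for the 15 collagens tested, in 4 comparisons between gates; filled red points were called at an adjusted p under 0.05 (edgeR) and open points were not. COL13A1 and COL1A1 have the largest changes toward TWIST1 cells (5.14 and 3.71 against SOX21 cells), and COL9A1, COL14A1 and COL8A2 lie on the DLX5 side.

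COL1A1 (ENSGALG00000041555) encodes the main chain of type I collagen, the fibril of skin, tendon and bone. In TWIST1 cells it had 39.3 and 91.4 CPM in HH5, 69.1 and 76.8 in 1ss, 73.2 and 119 in 4ss, and 233 and 299 in 7ss. It had 8.02 to 21.5 CPM in DLX5 cells and 5.14 to 14.1 in SOX21 cells, so TWIST1 cells did not overlap either. The difference was 3.71 ± 0.21 against SOX21 cells (log2 ± SE, adjusted p 4.0e-12, edgeR) and 3.05 ± 0.21 against DLX5 cells (adjusted p 2.4e-10), higher in 8 of 8 libraries each.

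In DLX5 and SOX21 cells, COL1A1 was in most libraries no higher than in empty droplets. Empty droplets had 11.0 and 14.2 CPM in HH5, 20.5 and 19.95 in 1ss, 24.6 and 21.9 in 4ss, and 41.3 and 44.8 in 7ss. SOX17 cells were at or below them in 3 of 6 libraries, TWIST1 cells in 0 of 8, DLX5 cells in 7 of 8 and SOX21 cells in 8 of 8. With free RNA subtracted from each sum, taken as 10% of its UMIs, the differences of TWIST1 cells were 4.23 from SOX21 cells and 3.33 from DLX5 cells; the true share of free RNA was not measured. SOX17 cells, at 7.91 to 22.3 CPM against 39.3 to 119 in TWIST1 cells of the same 6 libraries, differed by −2.39 ± 0.32 on the log2 scale (adjusted p 1.0e-05, edgeR). The difference of 0.66 ± 0.24 between DLX5 and SOX21 cells (adjusted p 0.0473) was lost in 15 of 23 alternatives.

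COL1A2 (ENSGALG00000009641), the partner chain of type I collagen, did not follow COL1A1. In TWIST1 cells it had 22.6 and 33.1 CPM in HH5, 4.35 and 4.72 in 1ss, 5.60 and 27.2 in 4ss, and 20.2 and 40.3 in 7ss. SOX21 cells had 18.6 and 32.6 CPM in HH5, 2.32 and 5.05 in 1ss, 3.47 and 16.9 in 4ss, and 4.90 and 20.8 in 7ss. Apart from 7ss replicate 1, with 20.2 CPM in TWIST1 cells but 4.90 in SOX21 cells, the same libraries were high or low in both gates. In the other libraries the empty droplets moved with both gates except in HH5 replicate 2. Empty droplets had 20.2 and 6.07 CPM in HH5, 1.77 and 3.99 in 1ss, 4.50 and 17.0 in 4ss, and 10.5 and 26.7 in 7ss. In DLX5 cells COL1A2 was lower, at 3.23 and 1.71 CPM in HH5, 0 and 1.69 in 1ss, 0.222 and 2.68 in 4ss, and 4.91 and 16.2 in 7ss, below the empty droplets in 8 of 8 libraries. The 0 allows up to 1.27 CPM (3 counts; such limits and the intervals below cover counting error only).

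TWIST1 cells had more COL1A2 than DLX5 cells, by 2.31 ± 0.32 (log2 ± SE, adjusted p 3.1e-06, edgeR; higher in 8 of 8 libraries). DLX5 cells had less than SOX21 cells by −1.61 ± 0.32 (adjusted p 4.6e-04; lower in 7 of 8). The difference of TWIST1 over SOX21 cells was 0.69 ± 0.25 (adjusted p 0.0301), and it was lost in 9 of 23 alternatives. Over all kept cells the number of COL1A2 UMIs per COL1A1 UMI ran from 0.0965 in 1ss replicate 1 to 1.17 in HH5 replicate 1. No stage change of COL1A2 passed the test in any gate, and the part of the library in these levels was not tested.

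**Figure D3:**
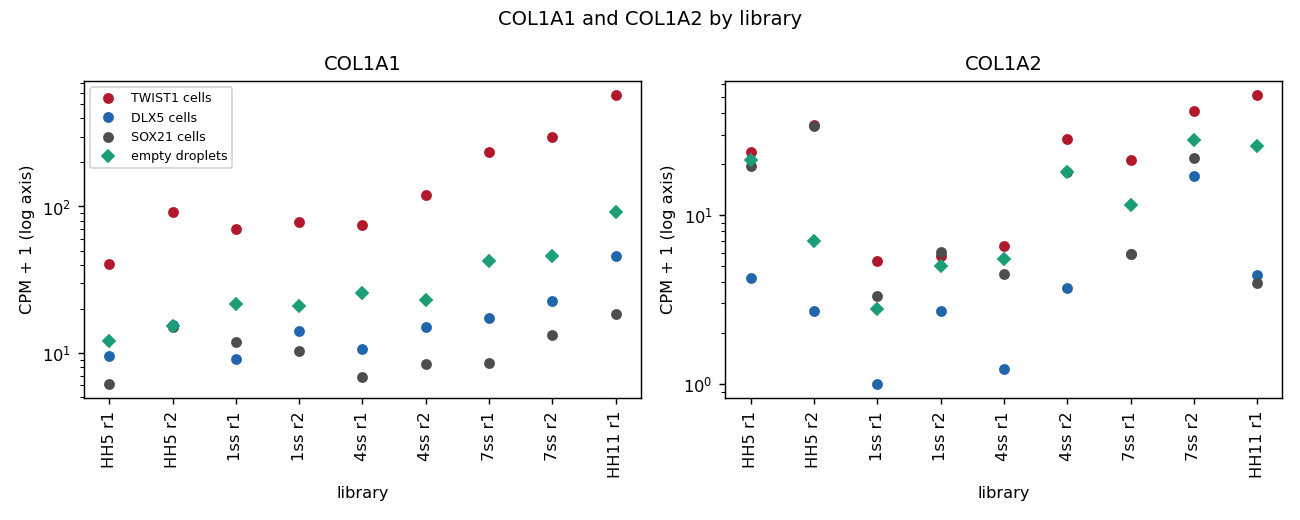
Levels of COL1A1 and COL1A2 by library (CPM + 1, log axis) in TWIST1, DLX5 and SOX21 cells (circles) and in empty droplets (diamonds). COL1A1 of TWIST1 cells lies above all other groups and is highest at HH11 (572 CPM), while COL1A2 differs between the replicates of 4ss (5.60 and 27.2 CPM in TWIST1 cells).

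COL5A1 (ENSGALG00000002546) and COL5A2 (ENSGALG00000031112) encode chains of type V collagen, which forms the core of type I fibrils. COL5A1 had 26.5 and 36.4 CPM in TWIST1 cells of HH5, 22.8 and 34.7 in 1ss, 40.4 and 66.4 in 4ss, and 69.6 and 88.9 in 7ss. DLX5 cells had 10.6 and 9.41 CPM in HH5, 12.7 and 19.0 in 1ss, 23.8 and 23.6 in 4ss, and 45.9 and 48.7 in 7ss. SOX21 cells had 7.58 and 7.05 CPM, then 8.72 and 13.6, 14.3 and 22.4, and 33.9 and 35.1 at the same stages. The order from high to low was TWIST1, DLX5 and SOX21 cells in each of the 8 libraries, and the ectodermal gates were closest in 4ss replicate 2 (23.6 and 22.4 CPM).

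The log2 difference in COL5A1 was 1.44 ± 0.10 for TWIST1 over SOX21 cells (adjusted p 9.6e-13, edgeR), 0.97 ± 0.11 for TWIST1 over DLX5 cells (adjusted p 1.3e-08) and 0.47 ± 0.11 for DLX5 over SOX21 cells (adjusted p 0.00119). Unlike COL1A1, it lay above the empty droplets (4.55 to 28.5 CPM) in 8 of 8 libraries of DLX5 cells and 6 of 8 of SOX21 cells. SOX17 cells, at 10.3 to 29.8 CPM against 22.8 to 66.4 in TWIST1 cells of the same 6 libraries, differed by −0.91 ± 0.17 (adjusted p 1.5e-04).

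COL5A2 was far less abundant than COL5A1. In TWIST1 cells it had 1.82 and 0.809 CPM in HH5, 2.56 and 2.83 in 1ss, 5.75 and 11.1 in 4ss, and 11.9 and 15.9 in 7ss. DLX5 cells had 4.91 and 3.28 CPM in 7ss, against 0.621 and 0 in HH5, and SOX21 cells had 5.12 and 7.96 in 7ss, against 0.487 and 0 in HH5, where the 0 values allow up to 2.57 and 2.64 CPM. TWIST1 cells were higher than DLX5 cells by 1.97 ± 0.24 (log2 ± SE, adjusted p 6.3e-08, edgeR) and higher than SOX21 cells by 1.36 ± 0.19 (adjusted p 8.3e-07). Empty droplets had 10.9 and 8.66 CPM in 7ss, against 0.422 and 0.505 in HH5, and DLX5 cells were at or below them in 7 of 8 libraries and SOX21 cells in 5 of 8.

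COL3A1 (ENSGALG00000035584), the chain of type III collagen of soft connective tissue and vessels, was almost absent at HH5 and then appeared in TWIST1 cells. It had 0.332 and 1.62 CPM in HH5 (2 UMIs in each library), 1.54 and 1.65 in 1ss, 3.58 and 3.37 in 4ss, and 14.5 and 18.0 in 7ss. DLX5 cells stayed at 0 to 0.757 CPM and SOX21 cells at 0.126 to 1.95, and empty droplets had 0 to 4.69. Only TWIST1 cells were above the empty droplets in all 8 libraries.

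COL2A1 (ENSGALG00000030712), the main chain of cartilage fibrils, was low in every gate before HH11. It had 3.07 to 7.29 CPM in TWIST1 cells, 1.27 to 5.55 in DLX5 cells and 2.39 to 4.41 in SOX21 cells. TWIST1 cells were higher than SOX21 cells by 0.72 ± 0.23 (log2 ± SE, adjusted p 0.0106, edgeR) and higher than DLX5 cells by 0.65 ± 0.26 (adjusted p 0.0407), a call lost in 12 of 23 alternatives. Empty droplets held 11.8 CPM in HH5 replicate 1 and 15.6 and 16.6 CPM in 7ss, more than any gate did, and TWIST1 cells lay at or below them in 6 of 8 libraries.

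COL4A1 (ENSGALG00000036798) and COL4A2 (ENSGALG00000016843) encode the chains of the common type IV collagen of basement membranes. COL4A1 had 67.0 and 80.0 CPM in TWIST1 cells of HH5, 53.5 and 60.7 in 1ss, 67.6 and 54.9 in 4ss, and 50.5 and 47.4 in 7ss. DLX5 cells had 65.0 and 47.9 CPM in HH5, 34.2 and 49.0 in 1ss, 38.2 and 32.4 in 4ss, and 18.1 and 18.7 in 7ss. SOX21 cells had 27.9 and 36.1 CPM, then 23.4 and 23.99, 22.5 and 17.4, and 20.4 and 17.2. TWIST1 cells thus stood above both ectodermal gates in each library, and DLX5 cells came down to the level of SOX21 cells at 7ss. Empty droplets had 8.22 to 24.05 CPM of COL4A1 and 1.52 to 7.59 of COL4A2, and TWIST1 cells were above them in 8 of 8 libraries for both genes.

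The log2 difference in COL4A1 was 1.37 ± 0.17 for TWIST1 over SOX21 cells (adjusted p 9.0e-07, edgeR) and 0.68 ± 0.18 for TWIST1 over DLX5 cells (adjusted p 0.00386). COL4A2 was lower in level, at 7.68 to 13.7 CPM in TWIST1 cells, 4.80 to 18.5 in DLX5 cells and 3.80 to 7.05 in SOX21 cells. It was 1.26 ± 0.19 higher in TWIST1 than in SOX21 cells (adjusted p 3.8e-06) and 1.10 ± 0.20 higher in DLX5 than in SOX21 cells (adjusted p 1.1e-04). Between TWIST1 and DLX5 cells its difference of 0.16 ± 0.20 did not pass the test (adjusted p 0.570).

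In SOX17 cells COL4A1 had 15.7 and 4.38 CPM in HH5, 16.4 and 10.6 in 1ss, and 7.99 and 42.1 in 4ss. In the same 6 libraries TWIST1 cells had 53.5 to 80.0 CPM and DLX5 cells 32.4 to 65.0. The log2 difference was −1.96 ± 0.30 for SOX17 over TWIST1 cells (adjusted p 4.4e-05, edgeR) and −1.28 ± 0.31 for SOX17 over DLX5 cells (adjusted p 0.00311). The 4ss replicate 2 sum, 42.1 CPM, stood apart from the other 5, and the notochord panel in SOX17 cells was also highest there, at 865 CPM against 29.5 to 192 in the other 5 libraries; its part in the level was not tested. The difference from DLX5 cells changed sign when cells with 2 gate genes entered both gates (0.31) or when cells were gated on panels (0.62). With the same 2 settings the difference from TWIST1 cells was no longer called, at −0.35 (adjusted p 0.587) and −0.16 (adjusted p 0.813). SOX17 cells were at or below the empty droplets in 4 of 6 libraries for COL4A1 and in 4 of 6 for COL4A2.

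COL4A1 and COL4A2 lie next to each other in RefSeq's gene order (assembly GRCg7b), and in mammals they share a promoter. Over the 30 sums of the 8 libraries their levels on the log2(CPM + 1) scale had a Pearson correlation of 0.917 and a Spearman correlation of 0.928, as a description, since sums of a library share cells in suspension, depth and preparation. The number of COL4A1 UMIs per COL4A2 UMI was 3.81 to 6.97 in TWIST1 cells, 2.50 to 4.59 in DLX5 cells and 4.25 to 6.06 in SOX21 cells. The other neighbouring pairs were COL5A2 with COL3A1 (Pearson 0.702) and COL6A1 with COL6A2 (0.615). The chains of type I collagen, COL1A1 and COL1A2, had 0.479, and those of type V had 0.798. COL9A1 and its partner chain COL9A3, which was low in level, had 0.228 (Spearman −0.007).

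**Figure D4:**
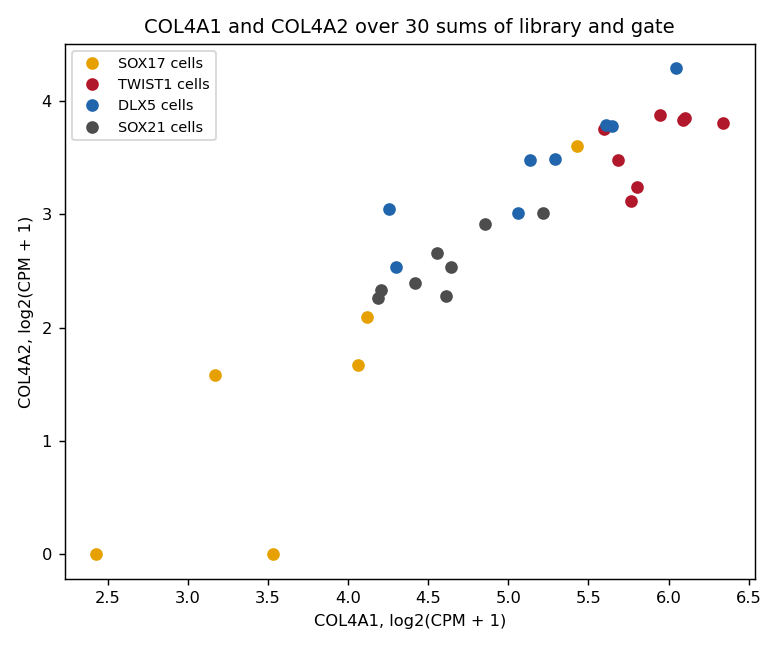
COL4A2 against COL4A1 (log2(CPM + 1) on both axes) in the 30 gate sums of HH5 to 7ss, coloured by gate. The 2 genes follow each other (Pearson 0.917). SOX17 cells lie at the low end except in 4ss replicate 2 (42.1 CPM of COL4A1 and 11.2 of COL4A2).

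COL8A2 (ENSGALG00000002298), a chain of the hexagonal type VIII network known from the cornea, was highest in DLX5 cells. TWIST1 cells had 0 to 1.49 CPM. DLX5 cells had 4.35 and 7.70 CPM in HH5, 2.53 and 3.38 in 1ss, 5.11 and 2.19 in 4ss, and 5.76 and 6.31 in 7ss, and SOX21 cells had 1.21 to 4.41. TWIST1 cells were above the empty droplets in 0 of 8 libraries and DLX5 cells in 8 of 8. The log2 difference was −2.56 ± 0.31 for TWIST1 over DLX5 cells (adjusted p 6.5e-08, edgeR) and 1.16 ± 0.24 for DLX5 over SOX21 cells (adjusted p 4.9e-04). Its partner chain COL8A1 had 0 UMIs in 7 of 8 TWIST1 sums and 2 in the other, and at most 0.505 CPM in any other gate.

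COL6A3 (ENSGALG00000003923), the large chain of type VI filaments, which lie around cells, was higher in TWIST1 cells than in SOX21 cells. It had 2.49 and 1.62 CPM in TWIST1 cells of HH5, 1.79 and 1.42 in 1ss, 1.87 and 5.78 in 4ss, and 8.47 and 13.6 in 7ss, against 0.253 to 1.76 in SOX21 cells. DLX5 cells had 1.27 to 4.63 CPM. The log2 difference was 2.40 ± 0.30 for TWIST1 over SOX21 cells (adjusted p 9.4e-08, edgeR) and 1.65 ± 0.33 for DLX5 over SOX21 cells (adjusted p 3.0e-04). Empty droplets had 0.780 to 2.53 CPM, and SOX21 cells were at or below them in 6 of 8 libraries, against 0 of 8 for TWIST1 cells and 1 of 8 for DLX5 cells. COL6A1 and COL6A2, which encode the other type VI chains, showed no such excess: COL6A1 had 0 to 1.58 CPM in TWIST1 cells against 0 to 2.26 in SOX21 cells, and COL6A2 had 0 to 0.241 against 0 to 1.80.

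COL9A1 (ENSGALG00000015970) and COL14A1 (ENSGALG00000037675), FACIT collagens known from cartilage and from soft connective tissue, were both higher in DLX5 cells than in the other ectodermal gate. COL9A1 had 0.809 to 4.73 CPM in TWIST1 cells. It had 10.2 and 8.55 CPM in DLX5 cells of HH5, 9.71 and 7.19 in 1ss, 16.9 and 13.9 in 4ss, and 14.9 and 16.4 in 7ss. It had 0 to 5.49 CPM in SOX21 cells, and neither TWIST1 nor SOX21 cells overlapped DLX5 cells. The log2 difference was −2.27 ± 0.20 for TWIST1 over DLX5 cells (adjusted p 2.1e-10, edgeR) and 1.78 ± 0.18 for DLX5 over SOX21 cells (adjusted p 5.9e-09). SOX17 cells had 2.00 to 10.6 CPM of COL9A1, on 1 to 26 UMIs per sum. They were below DLX5 cells (−1.09 ± 0.31, adjusted p 0.00766, edgeR) and above TWIST1 cells (1.19 ± 0.35, adjusted p 0.0121, higher in 6 of 6 libraries). Empty droplets had 1.01 to 5.46 CPM, and TWIST1 cells were at or below them in 5 of 8 libraries, DLX5 cells in 0 of 8 and SOX21 cells in 3 of 8. Its partner chain COL9A3 was at 0 in 5 of 8 DLX5 sums and reached 2.27 CPM at 7ss.

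COL14A1 had 1.06 to 4.15 CPM in TWIST1 cells. It had 10.2 and 7.70 CPM in DLX5 cells of HH5, 11.8 and 5.49 in 1ss, 12.4 and 7.31 in 4ss, and 4.69 and 6.31 in 7ss. It had 0.578 to 2.85 CPM in SOX21 cells, and all TWIST1 and SOX21 values were below every DLX5 value. The log2 difference was −1.67 ± 0.31 for TWIST1 over DLX5 cells (adjusted p 7.3e-05, edgeR) and 2.42 ± 0.30 for DLX5 over SOX21 cells (adjusted p 4.4e-07). Empty droplets had 0.361 to 4.22 CPM, and SOX21 cells were at or below them in 6 of 8 libraries, against 0 of 8 for DLX5 cells. SOX17 cells varied widely, from 0 to 17.5 CPM against 0.578 to 2.85 in SOX21 cells of the same 6 libraries, and were higher than SOX21 cells by 2.26 ± 0.45 (adjusted p 2.2e-04). They were also higher than TWIST1 cells, by 1.51 ± 0.45 (adjusted p 0.0142, edgeR). Their difference from DLX5 cells, −0.16 ± 0.41, did not pass the test (adjusted p 0.842).

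The DLX5 gate changed in makeup over the stages. The summed level of 8 neural crest markers in DLX5 cells was 1255 and 1205 CPM in 7ss, against 292 and 234 in HH5, and 10.5% and 15.7% of DLX5 cells at 7ss had a UMI of FOXD3 or SOX10. In an alternative chosen after seeing the data, cells with such a UMI or with a UMI of the endothelium and blood panel were left out. With it 12 collagens instead of 10 differed between DLX5 and SOX21 cells. Fewer collagens were then called for DLX5 cells at 7ss over HH5, and for the difference of that change between TWIST1 and DLX5 cells. The share of all genes called with this alternative is not given, so these counts cannot be set against all genes.

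COL12A1 (ENSGALG00000015908), a FACIT collagen of type I fibrils known from tendon and fascia, was highest in DLX5 cells at first and in TWIST1 cells later. In TWIST1 cells it had 0.498 and 0 CPM in HH5 (the 0 allows up to 2.43), 0.512 and 0.472 in 1ss, 2.33 and 4.09 in 4ss, and 7.06 and 13.7 in 7ss. In DLX5 cells it had 3.48 and 2.57 CPM in HH5, 1.69 and 1.69 in 1ss, 2.44 and 3.65 in 4ss, and 6.19 and 6.06 in 7ss, and SOX21 cells stayed at 0.640 to 1.46. TWIST1 cells were therefore below DLX5 cells in the 4 libraries of HH5 and 1ss and above them in both of 7ss. Over all 8 libraries the difference of TWIST1 over DLX5 cells, −0.17 ± 0.42, did not pass the test (adjusted p 0.794, edgeR), while TWIST1 cells were higher than SOX21 cells by 1.76 ± 0.45 (adjusted p 0.00259; higher in 4 of 8 libraries) and DLX5 cells higher than SOX21 cells by 1.92 ± 0.46 (adjusted p 0.00238). Empty droplets had 0 to 2.53 CPM, and TWIST1 cells were at or below them in 3 of 8 libraries and DLX5 cells in 0 of 8.

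COL22A1, a FACIT collagen of muscle-tendon junctions, had 0 to 6.55 CPM in SOX17 cells, 0.941 to 6.22 CPM in TWIST1 cells, 0 to 1.71 in DLX5 cells and 0.569 to 2.54 in SOX21 cells. TWIST1 cells were higher than DLX5 cells by 1.91 ± 0.46 (log2 ± SE, adjusted p 0.00118, edgeR) and SOX17 cells were higher than DLX5 cells by 2.09 ± 0.64 (adjusted p 0.0146). COL20A1 stayed at or below 0.768 CPM in all sums but the SOX17 sum of 4ss replicate 2 (2.48 CPM, 2 UMIs) and the DLX5 sum of HH11 (2.65 CPM, 7 UMIs).

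COL13A1 (ENSGALG00000004286), a transmembrane collagen known from neuromuscular junctions and other cell contacts, had the largest difference of TWIST1 cells from both ectodermal gates among the 15 collagens tested. It had 46.8 and 55.8 CPM in TWIST1 cells of HH5, 21.0 and 12.8 in 1ss, 7.62 and 7.22 in 4ss, and 1.65 and 0.630 in 7ss. DLX5 cells had 0 to 1.49 CPM and SOX21 cells 0 to 1.76. The TWIST1 libraries of HH5, 1ss and 4ss were therefore above every DLX5 or SOX21 value, while those of 7ss overlapped them.

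TWIST1 cells had more COL13A1 than SOX21 cells by 5.14 ± 0.34 (log2 ± SE, adjusted p 3.4e-13, edgeR) and more than DLX5 cells by 5.14 ± 0.40 (adjusted p 2.2e-11), higher in 8 of 8 libraries each. SOX17 cells, at 0 to 4.96 CPM against 7.22 to 55.8 in TWIST1 cells of the same 6 libraries, differed by −3.28 ± 0.47 (adjusted p 4.8e-06). DLX5 and SOX21 cells were at or below the empty droplets, which had 12.2 and 3.54 CPM in HH5, in 8 of 8 libraries.

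COL26A1, a short collagen known from mouse gonads, was at 0 in SOX17 cells in 5 of 6 libraries, but these zeros allow up to 0.596 and 6.57 CPM in HH5, 7.91 in 1ss replicate 2, and 5.995 and 3.72 in 4ss. It was higher in TWIST1 cells, at 1.33 to 3.94 CPM, than in DLX5 cells, at 0 to 1.49 (log2 difference 1.73 ± 0.36, adjusted p 2.7e-04, edgeR). COL17A1, the collagen of hemidesmosomes, stayed at or below 0.946 CPM in each sum of HH5 to 7ss.

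Stages were compared with HH5 within each gate, in a fit of the 8 libraries of that gate without a block (2 libraries per stage). In TWIST1 cells at 7ss, 6 collagens were higher and 2 lower than at HH5 of 15 tested, where 10.5% of all 9853 genes were called (5.18% higher and 5.32% lower). At 4ss 2 of 15 were called (1.63% of all genes). At 1ss 0 of 15 were called by edgeR (0.0507% of all genes) and 2 by DESeq2. At an unadjusted p under 0.05 (edgeR) there were 2, beside 733 of all 9853 genes. In DLX5 cells at 7ss, 2 collagens were higher and 2 lower of 12 tested (7.93% of all genes called), and in SOX21 cells 3 were higher and 0 lower of 17 tested (8.06%).

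At 4ss edgeR called 0 collagens in DLX5 cells (0.343% of all genes called) and 0 in SOX21 cells (0.414%). At an unadjusted p under 0.05 there were 3 of 12 and 6 of 17, beside 1135 of 9615 and 1464 of 11104 genes. At 1ss edgeR called 0 in DLX5 cells (0% of all genes) and 0 in SOX21 cells (0.018%). At an unadjusted p under 0.05 there were 0 and 3, beside 550 of 9615 and 896 of 11104 genes. DESeq2 called 0 in each of these 4. Only COL5A1 passed the filter in SOX17 cells, and it was not called at 1ss (0.0387% of all genes called) or 4ss (0.407%) by edgeR or DESeq2, nor at an unadjusted p under 0.05.

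**Figure D5:**
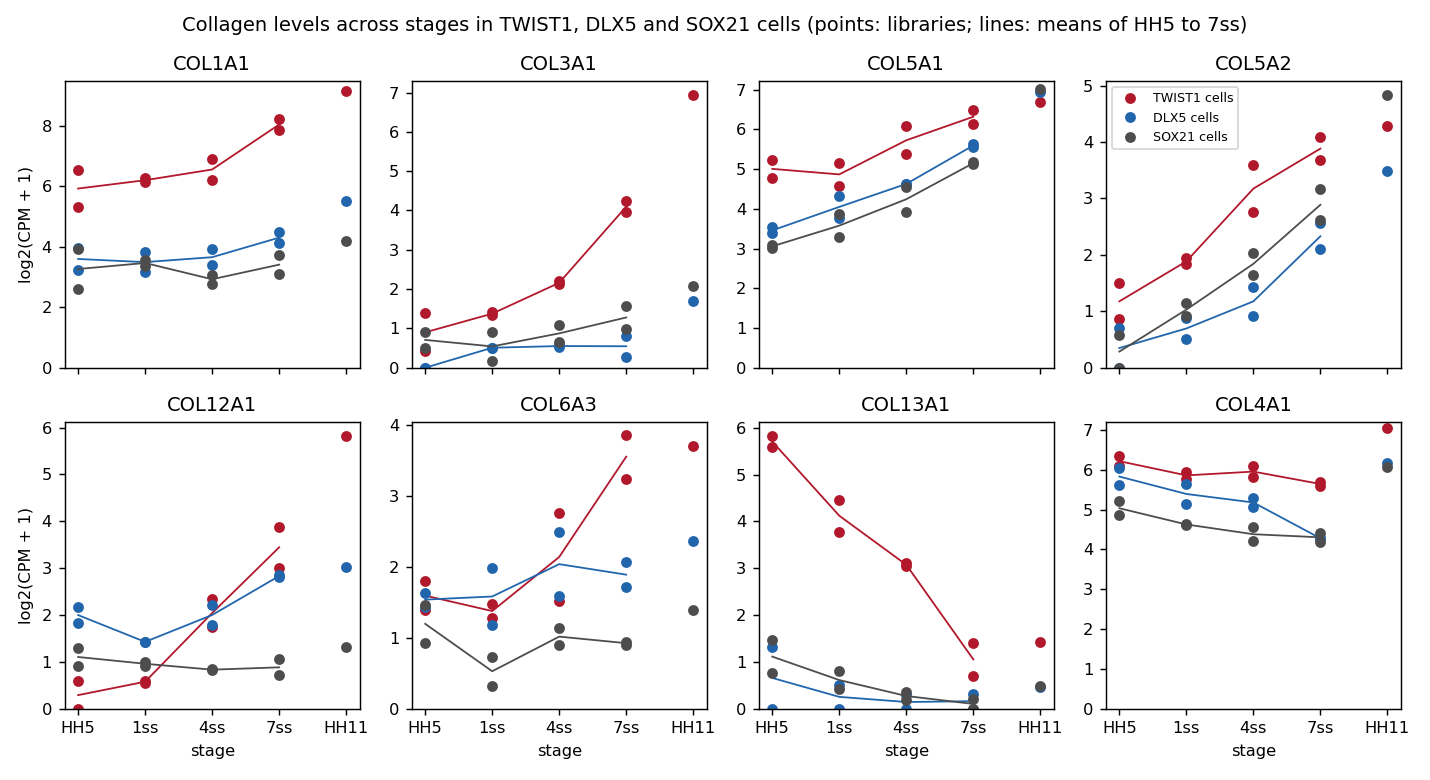
Levels of 8 collagens by stage in TWIST1, DLX5 and SOX21 cells (y axis log2(CPM + 1); points are libraries, lines join the means of HH5 to 7ss, and HH11 has 1 library). COL1A1, COL3A1, COL5A2, COL6A3 and COL12A1 are higher at 7ss than at HH5 in TWIST1 cells, COL13A1 is lower, and COL4A1 is lower in DLX5 cells.

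COL13A1 had the largest stage change among the collagens called. In TWIST1 cells it fell by 2.77 on the log2 scale at 4ss (SE 0.36, adjusted p 0.00272, edgeR) and by 5.44 at 7ss (SE 0.43, adjusted p 2.8e-05) against HH5. With the term for the set of libraries both falls were still called, at −2.74 (adjusted p 0.00582) and −5.38 (adjusted p 0.00299). Neither was lost in any of 22 alternatives.

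The rise of COL3A1 in TWIST1 cells at 7ss, 4.66 ± 0.60 against HH5 (log2 ± SE, adjusted p 7.1e-04, edgeR), was also called with the set term (4.75, adjusted p 0.0272) and in each of 22 alternatives. It rests on 2 UMIs per library at HH5. COL12A1 rose by 4.52 ± 0.73 (adjusted p 0.00346), COL5A2 by 3.03 ± 0.52 (adjusted p 0.00488), COL6A3 by 2.19 ± 0.57 (adjusted p 0.0313), COL1A1 by 2.03 ± 0.37 (adjusted p 0.00662) and COL5A1 by 1.31 ± 0.33 (adjusted p 0.0280). With the set term these 5 kept their direction but not the call: COL12A1 3.68 (adjusted p 0.168), COL5A2 2.05 (0.249), COL6A3 0.53 (0.912), COL1A1 1.32 (0.440) and COL5A1 0.58 (0.758). COL14A1 fell by 1.88 (SE 0.53, adjusted p 0.0397), a call lost in 16 of 22 alternatives and with the set term (−1.54, adjusted p 0.585).

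Other cell types in the TWIST1 gate moved with stage as well. The endothelium and blood panel summed to 83.7 and 64.1 CPM in 7ss, against 19.7 and 25.9 in HH5, with 2 and 2 of its 9 genes at 0 at 7ss and 3 and 5 in HH5, and the cardiac panel to 242 and 156 CPM against 123 and 82.5. The notochord panel summed to 196 and 172 CPM in HH5 (0 and 2 of its 5 genes at 0). It had 336 and 175 CPM in 1ss, 244 and 387 in 4ss, and 49.5 and 64.0 in 7ss (1 and 0 at 0). Without cells holding a UMI of the endothelium and blood panel, or of FOXD3 or SOX10, 7 instead of 8 collagens were called at 7ss in TWIST1 cells, and the call lost was that of COL14A1. The part of the cardiac and notochord markers was not tested.

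The share of TWIST1 cells with a COL1A1 UMI rose as well as the number of UMIs per such cell. After each cell was thinned to 2000 UMIs, leaving out 269 and 284 shallower TWIST1 cells at 7ss and 101 and 321 in HH5, the share was 7.88% and 16.6% in HH5, 12.0% and 12.1% in 1ss, 14.96% and 16.4% in 4ss, and 34.8% and 41.7% in 7ss. Unthinned shares were 57.7% and 52.7% in 7ss, against 20.6% and 17.1% in HH5. Thinned DLX5 cells had 1.39% to 3.28% and thinned SOX21 cells, neural cells whose COL1A1 was at or below the empty droplets in 8 of 8 libraries, 1.42% to 2.88% over the same stages. Thinned TWIST1 cells with COL1A1 held 1.33 and 1.49 UMIs of it at 7ss, against 1.05 and 1.12 in HH5. For COL13A1 the thinned share in TWIST1 cells was 8.64% and 9.72% in HH5, 5.10% and 2.68% in 1ss, 2.30% and 1.47% in 4ss, and 0.419% and 0.367% in 7ss.

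In DLX5 cells COL5A1 rose by 2.22 ± 0.31 at 7ss against HH5 (log2 ± SE, adjusted p 0.00174, edgeR) and COL5A2 by 2.92 ± 0.76 (adjusted p 0.0361), while COL4A1 fell by 1.63 (SE 0.29, adjusted p 0.00626) and COL4A2 by 1.42 (SE 0.37, adjusted p 0.0382). In SOX21 cells COL5A1 rose by 2.23 ± 0.36 (adjusted p 0.00706), COL5A2 by 3.88 ± 0.59 (adjusted p 0.00548) and COL6A2 by 3.62 ± 0.99 (adjusted p 0.0489). COL6A2 had only 2 and 0 UMIs in SOX21 cells of HH5, against 22 and 35 in 7ss. The 0 allows up to 2.64 CPM, more than either 7ss level (1.56 and 1.80 CPM). With the set term none of the 7 was called: in DLX5 cells COL5A1 was 2.09 (adjusted p 0.0773), COL5A2 1.86 (0.782), COL4A1 −1.53 (0.217) and COL4A2 −1.03 (0.696), and in SOX21 cells COL5A1 was 1.45 (0.226), COL5A2 3.19 (0.121) and COL6A2 1.42 (0.801). The type V rise was thus seen in TWIST1, DLX5 and SOX21 cells, and empty droplets also held more COL5A1 at 7ss (18.7 and 28.5 CPM) than at HH5 (8.44 and 4.55). Their COL5A2 rose too, with 10.9 and 8.66 CPM in 7ss against 0.422 and 0.505 in HH5. At 7ss that was more COL5A2 than in DLX5 cells (4.91 and 3.28 CPM) or SOX21 cells (5.12 and 7.96). The neural crest panel rose in SOX21 cells as well, with 421 and 447 CPM in 7ss (0 of its 8 genes at 0), against 64.8 and 89.0 in HH5 (0 and 2 at 0). Without cells holding a UMI of FOXD3, SOX10 or the endothelium and blood panel, the changes in SOX21 cells were 2.16 for COL5A1 (adjusted p 0.00712), 4.36 for COL5A2 (adjusted p 0.00410) and 3.33 for COL6A2 (adjusted p 0.0803, no longer called). With free RNA subtracted, COL5A1 was still called in both ectodermal gates and COL5A2 in SOX21 but not in DLX5 cells.

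Whether the change of 7ss over HH5 differed between gates was tested as an interaction with the library as a block. Of 10 collagens tested, 6 differed between TWIST1 and DLX5 cells, where 12.1% of all genes were called, and of 15 tested, 5 differed between TWIST1 and SOX21 cells, where 17.5% were called. The change of COL1A1 was greater in TWIST1 cells than in DLX5 cells by 1.41 ± 0.23 (log2 ± SE, adjusted p 8.8e-05, edgeR) and greater than in SOX21 cells by 1.81 ± 0.23 (adjusted p 5.2e-06). That of COL12A1 was greater than in DLX5 cells by 3.55 ± 0.76 (adjusted p 0.00151), and those of COL4A1 and COL4A2 by 1.12 ± 0.21 (adjusted p 3.9e-04) and 1.19 ± 0.35 (adjusted p 0.0218). Neither type IV chain was called at 7ss in TWIST1 cells.

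The change of COL5A1 was smaller in TWIST1 cells, by −0.79 ± 0.25 against DLX5 cells (adjusted p 0.0362, edgeR) and −0.76 ± 0.21 against SOX21 cells (adjusted p 0.0134). Against SOX21 cells, COL3A1 and COL6A3 differed by 3.33 ± 1.04 (adjusted p 0.0279) and 2.30 ± 0.68 (adjusted p 0.0203). COL1A2 differed by −1.49 ± 0.42 from DLX5 cells (adjusted p 0.0169) and by 1.09 ± 0.31 from SOX21 cells (adjusted p 0.0248). These calls depend on the HH5 libraries: without HH5 replicate 1, 0 of the 6 differences from DLX5 cells were called (COL1A1 1.11, adjusted p 0.150; COL4A1 0.62, adjusted p 0.311; COL12A1 7.07, adjusted p 0.221; COL1A2 −2.72, adjusted p 0.101), and without either HH5 library 1 of the 5 differences from SOX21 cells was. The difference of COL1A2 from DLX5 cells was also lost with the panel gate (−0.28, adjusted p 0.783) and with cells of 2 gates kept (−0.68, adjusted p 0.200). The set of libraries was not a term in these fits.

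At HH11, 12 of 24 collagens in TWIST1 cells, 9 in DLX5 cells and 9 in SOX21 cells lay above every earlier library. The rule was that the lower bound of an exact 95% Poisson interval exceeded each earlier level of the gate. COL1A1, COL2A1, COL3A1 and COL5A1 met it in all 3 gates. The share of all genes that met it was not computed. Empty droplets of the library held 91.2 CPM of COL1A1, above DLX5 (44.6) and SOX21 cells (17.4). They held 14.5 of COL3A1, above DLX5 (2.27) and SOX21 cells (3.23), and 47.7 of COL2A1, above all 3 gates. In TWIST1 cells COL1A1 had 572 CPM at HH11 (interval 551 to 594), against at most 299 before, COL3A1 had 122 (113 to 133) against at most 18.0, and COL12A1 had 55.7 (49.1 to 62.8) against at most 13.7. These 3 genes, which rose toward 7ss, were thus higher still in this library.

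Other collagens stood out at HH11 as well. COL9A1 had 45.9 CPM (interval 40.02 to 52.5) in TWIST1 cells, against at most 4.73 before, and 101 CPM (89.2 to 114) in DLX5 cells, against at most 16.9 before. In SOX21 cells it had 6.20 CPM (4.54 to 8.27), and empty droplets of the library held 32.6. At HH11 7.80% of TWIST1 cells had a UMI of FOXD3 or SOX10, against 0.609% and 2.29% in 7ss. In DLX5 cells the share was 15.9%, against 10.5% and 15.7% in 7ss. Cells with UMIs of both genes held 277 CPM of COL9A1 at HH11, and their part in the gate levels was not tested. COL14A1 had 43.1 CPM (35.6 to 51.8) in DLX5 cells against at most 12.4. COL2A1 had 23.8 CPM (18.3 to 30.5) in DLX5 cells against at most 5.55, but empty droplets of that library held 47.7. COL5A1 had 128 CPM (120 to 137) in SOX21 cells against at most 35.1 before, and no longer followed the earlier order, with 103 CPM in TWIST1 cells and 123 in DLX5 cells. COL13A1 stayed low in TWIST1 cells at 1.69 CPM.

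Genes that handle collagen were counted from fixed lists. Of 17 genes that fold and modify collagen chains, 13 were tested and 9 were higher and 0 lower in TWIST1 than in SOX21 cells (median log2 change 0.71). Of 18 genes of secretion, propeptide cleavage and cross-linking 9 were tested, with 5 higher and 1 lower (median 0.69), of 9 receptor genes 5 were tested, with 2 higher and 2 lower, and of 11 genes that cleave collagen 4 were tested, with 3 higher and 0 lower (median 1.88). At 7ss over HH5 in TWIST1 cells, the counts were 1 higher and 1 lower of 14, 2 and 0 of 9, 2 and 0 of 5, and 2 and 0 of 4. The shares of all genes called in these comparisons were 42% and 10.5%.

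Of the named partners, MMP2, a gelatinase that cleaves denatured and type IV collagen, had 4.31 and 0.809 CPM in TWIST1 cells of HH5, 17.7 and 20.3 in 1ss, 57.2 and 40.4 in 4ss, and 63.9 and 62.7 in 7ss. It was 4.87 ± 0.19 higher in TWIST1 than in SOX21 cells (log2 ± SE, adjusted p 2.2e-18, edgeR) and rose by 4.13 ± 0.41 at 7ss over HH5 (adjusted p 1.3e-04), which was also called with the set term (4.57, adjusted p 0.00216). DDR2, a receptor for fibrillar collagen, was 3.67 ± 0.19 higher in TWIST1 than in SOX21 cells (adjusted p 1.7e-15), and ADGRG1, a receptor for type III collagen, was lower by −2.69 ± 0.23 (adjusted p 5.1e-10). CRTAP and PLOD2, which belong to the machinery that modifies prolines and lysines of the chains, were higher by 1.28 ± 0.10 and 1.20 ± 0.11. TLL1, a propeptide protease, was higher by 3.65 ± 0.31, and CTSK, cathepsin K, by 3.30 ± 0.20. Smaller changes were called for COLGALT1, which glycosylates the chains (0.94 ± 0.12), LOXL1 and LOXL2, cross-linking oxidases (0.97 ± 0.26 and 1.18 ± 0.19), MMP15, a membrane metalloproteinase (0.24 ± 0.09), and ITGA2, a chain of a collagen-binding integrin (−1.33 ± 0.30).

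SERPINH1, the chaperone of the collagen helix, was low in 7ss, where COL1A1 was high. It had 62.0 and 41.2 CPM in TWIST1 cells of HH5, 59.4 and 40.9 in 1ss, 47.0 and 9.63 in 4ss, and 10.8 and 15.3 in 7ss, so the low libraries were those of the second set. SOX21 cells had 5.04 to 9.29 CPM in the same 3 libraries against 22.0 to 48.5 in the other 5. Its change at 7ss over HH5 in TWIST1 cells was −2.09 ± 0.56 (log2 ± SE, adjusted p 0.0407, edgeR), while SPARC, which binds collagen, rose by 1.55 ± 0.27 (adjusted p 0.00547) and LOXL2 by 1.87 ± 0.48 (adjusted p 0.0282). With the set term none of the 3 was called, and SERPINH1 changed sign (SERPINH1 0.15, adjusted p 0.968; SPARC 0.78, adjusted p 0.475; LOXL2 0.55, adjusted p 0.825). At HH11 SERPINH1 had 104 CPM in TWIST1 cells, above every earlier TWIST1 sum, and 46.4 in SOX21 cells.

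The other partners called at 7ss over HH5 in TWIST1 cells were ADGRG1 (2.74 ± 0.70, adjusted p 0.0286, edgeR), CTSK (2.01 ± 0.55, adjusted p 0.0407), PLOD1, a lysyl hydroxylase (1.13 ± 0.27, adjusted p 0.0215), and DDR2 (1.12 ± 0.33, adjusted p 0.0490). With the set term none of these 4 was called, and CTSK had −0.04 (adjusted p 0.994).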

How the data were processed

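The deposited values are UMI counts per gene and barcode; the authors made them with Cell Ranger (6.1.1 in the processing notes and in the file headers of 8 libraries, 5.0.0 in that of HH11; the paper's methods name another version) on the chicken genome GRCg6a with an annotation extended at 3′ ends, and the paper's methods also name Seurat (version 4 in the notes). Barcodes were kept with at least 200 genes, at most 4000 genes and at most 40% mitochondrial UMIs, and barcodes nearest to simulated doublets were removed at a rate that grew with the number of barcodes. UMIs were summed per library and gate (at least 50 cells). The 24 members and all lists were chosen with earlier results of these data known. Fits used edgeR 4.0.16 with limma 3.58.1 in R 4.3.3 (TMM scaling, filterByExpr, robust quasi-likelihood F test, 2-sided, Benjamini-Hochberg over all genes, threshold 0.05), checked on simulated data. DESeq2 1.42.0, scikit-learn 1.9.0, scipy 1.17.1 and pandas 2.3.3 served the alternatives, doublets, intervals and tables.

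All 16880 genes entered with symbols from the files, and all 24 collagens matched RefSeq symbols, used only for neighbours. Of each structural class the 2 most abundant members of at least 5 CPM were printed in full, plus the 3 further members with the largest called change in each comparison; COL2A1 and the other low members were added after their values were seen. Of each partner list, called members with the 3 largest changes were named. Alternatives were another gate (at least 2 UMIs, at least 3 panel markers, or cells of 2 gates kept), cell filters, free RNA subtracted, no count filter, other scaling, blocks, each replicate left out, and cells without endothelium, blood or crest UMIs. Panel and partner genes absent from the symbols were not analysed here.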

Additional observations from a re-analysis of the deposited data

Results flagged for a closer look

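The change of 7ss over HH5 differed between TWIST1 and DLX5 cells for 6 collagens by the interaction test of edgeR (8 libraries, library as a block). The differences of log2 changes were 3.55 for COL12A1, 1.41 for COL1A1, −1.49 for COL1A2, 1.12 for COL4A1, 1.19 for COL4A2 and −0.79 for COL5A1. Of all genes tested, 12.1% were called. Each of these calls was lost under some alternatives.

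Between TWIST1 and SOX21 cells the same test found 5 differences, with 17.5% of all genes called. They were 1.81 for COL1A1, 1.09 for COL1A2, 3.33 for COL3A1, −0.76 for COL5A1 and 2.30 for COL6A3. Each of these calls was also lost under some alternatives.

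COL8A1, which had 0 or 2 UMIs in the 8 earlier TWIST1 sums, had 10.8 CPM in TWIST1 cells of the HH11 library (51 UMIs, exact 95% Poisson interval 8.04 to 14.2), a library that no comparison between stages uses.

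COL2A1 was higher in empty droplets than in any gate in 3 libraries, with 11.8 CPM in HH5 replicate 1, 15.6 CPM in 7ss replicate 1 and 16.6 CPM in 7ss replicate 2.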

How the results depend on the processing

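Of 84 called changes of named collagens, 28 stayed called under every alternative run, 56 were lost under at least 1, and 1838 of 1840 values kept their direction. The exceptions were COL4A1 in SOX17 over DLX5 cells (−1.28), at 0.31 with cells of 2 gates kept in both and 0.62 with the panel gate.

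Shares of all genes called under the alternatives are not given, here or above, so the counts cannot be set against all genes. Counts of called collagens moved as follows. With the term for the 2 sets of libraries, 2 instead of 8 were called at 7ss in TWIST1 cells, 0 instead of 4 in DLX5 cells, 0 instead of 3 in SOX21 cells, and 1 instead of 0 at 1ss in TWIST1 cells. With the replicate block, the differences of TWIST1 from DLX5 and SOX21 cells gave 1 and 0 instead of 6 and 5. DLX5 cells at 7ss gave 2 and TWIST1 cells at 4ss gave 1 instead of 2. Over genes, the differences of replicate 1 from replicate 2 correlated weakly between stages (−0.242 to 0.144). Since 4ss replicate 2 resembled the 7ss libraries, these values cannot show whether the replicate numbers pair libraries. With DESeq2 the differences from DLX5 and SOX21 cells gave 2 and 1, DLX5 cells at 7ss gave 2 and TWIST1 cells at 1ss gave 2. With at least 2 UMIs of the gate gene they gave 2 and 3, DLX5 cells at 7ss gave 2, SOX17 over DLX5 cells gave 4 instead of 7 and SOX17 over TWIST1 cells 5 instead of 9. Without endothelium, blood or crest UMIs (chosen after seeing the data) they gave 2 and 3, and DLX5 cells at 7ss gave 2. With the panel gate the difference from SOX21 cells gave 1, DLX5 cells at 7ss 7, SOX17 over DLX5 cells 3, SOX17 over TWIST1 cells 5, TWIST1 over DLX5 cells 8 instead of 13 and TWIST1 cells at 4ss 1. Without the library block DLX5 over SOX21 cells gave 6 instead of 10, SOX17 over SOX21 cells 2 instead of 4 and SOX17 over TWIST1 cells 5. With no filter on low counts DLX5 cells at 4ss gave 1 instead of 0, SOX21 cells at 4ss 2 instead of 0 and at 7ss 5, and TWIST1 cells at 1ss 2 and at 4ss 4. SOX17 over DLX5 cells gave 4 with cells of 2 gates kept and 4 with the HH11 library. TWIST1 cells at 4ss gave 1 with at least 2000 UMIs per cell, with cells of 2 gates, with doublets kept and with free RNA subtracted, and SOX21 cells at 7ss gave 5 with doublets kept. The causes were not tested.

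With each replicate left out in turn, the counts ran over 0 to 6 for TWIST1 less DLX5 (0 without HH5 replicate 1, 3 without 7ss replicate 2), 1 to 5 for TWIST1 less SOX21 (1 without either HH5 library, 2 without 7ss replicate 1, 3 without 7ss replicate 2), 5 to 8 for TWIST1 cells at 7ss, 1 to 4 at 4ss and 0 to 2 at 1ss, 1 to 4 for DLX5 cells at 7ss (1 without either 7ss library, 2 without any of the HH5 or 1ss libraries), 0 to 5 for SOX21 cells at 7ss (0 without HH5 replicate 1), 0 to 3 at 4ss, 11 to 14 for TWIST1 over SOX21, 10 to 13 for TWIST1 over DLX5, 9 to 10 for DLX5 over SOX21, 6 to 9 for SOX17 over TWIST1, 2 to 7 for SOX17 over DLX5 (2 without HH5 replicate 1) and 3 to 5 for SOX17 over SOX21. A stage left with 1 library is assumed to vary like the others. The panel gate gave no fit for stages of SOX21 cells, nor at least 2 UMIs for stages of SOX17 cells, nor at least 2000 UMIs or no endothelium, blood or crest UMI for SOX17 cells at 1ss.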

Other observations

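Cells were also gathered from all kept cells by other markers (at least 2 markers of a panel, or UMIs of both FOXD3 and SOX10). Their levels are given as values. These sets were not kept apart from the gates, so a cell can be in a set and in a gate. At 7ss 17.2% and 18.3% of TWIST1 cells had a UMI of the endothelium and blood panel. The part of shared cells in the levels was not tested. Cells with notochord markers held more COL4A1 than any gate did in each of the 9 libraries, with 73.0 and 81.6 CPM in HH5, 111 and 98.2 in 1ss, 121 and 172 in 4ss, 145 and 112 in 7ss, and 159 at HH11. COL8A1 was at 0 in 6 of the 8 earlier libraries of these cells, at 0.937 and 1.68 CPM in the other 2, and at 154 CPM at HH11 (151 cells), where COL14A1 had 130 CPM against 3.75 to 14.6 before. COL13A1 had 0 CPM in them at 7ss, against 18.5 and 24.8 in HH5.

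Cells with endothelium and blood markers had 34.4 and 73.6 CPM of COL1A1 in 4ss, 169 and 251 in 7ss and 273 at HH11, and their COL4A1 was 26.3 and 36.8 CPM in 4ss, 65.2 and 76.4 in 7ss and 150 at HH11. Cells with both FOXD3 and SOX10 UMIs, 67 cells at HH11 and 72 in 7ss replicate 2, held 277 CPM of COL9A1 at HH11 against 17.2 in 7ss replicate 2, 200 against 31.7 of COL4A1, 172 against 77.9 of COL5A1, 52.4 against 7.25 of COL2A1, and 11.2 against 47.1 of COL1A2. Each value is of 1 library, with no test.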
